A study of Zea mays with 2 samples.

Results

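The genes described here belong to the making, sensing and response of 3 plant hormones, cytokinin, gibberellin and ethylene, in the endosperm of maize (Zea mays). They were chosen by words in the gene descriptions of the deposited tables, such as cytokinin, response regulator, gibberell, DELLA, aminocyclopropane and ethylene receptor, and number 77 of 33283 genes. Of these, 37 are cytokinin genes, 30 gibberellin genes and 9 ethylene genes. The last 1, a multidrug resistance-associated transporter (GRMZM2G111903), was matched only because its description holds the letters ein3 inside protein3. It belongs to no hormone and had 1.08 FPKM in dek33 against 2.31 in wild type. Transcripts were sequenced from endosperm of the defective kernel mutant dek33 and of wild type, each taken at 15 days after pollination and each given as 1 sample. The sources used here do not give the allele, the genetic background or the number of kernels or ears behind a sample. The source label of both samples is kernel while the tissue label is endosperm.

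Cytokinins promote cell division, and early endosperm is rich in them. They are made by isopentenyl transferases, inactivated by cytokinin oxidases or by attachment of glucose, and sensed by histidine kinases that pass a phosphate group through phosphotransfer proteins to response regulators in the nucleus. Gibberellins act through the GID1 receptor, which upon binding the hormone leads DELLA repressor proteins to degradation. In the cereal grain they are known for inducing, in the aleurone, enzymes that break down stored reserves. Ethylene is made from S-adenosylmethionine by way of ACC (aminocyclopropane carboxylic acid), and its receptors hold the pathway silent until the gas binds. In maize endosperm it is known for a part in the programmed death of the starchy cells.

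The values are FPKM, fragments scaled for transcript length and library size, so levels of different genes can be compared per length. With 1 value per genotype no test, error or replicate check is possible, and every difference below is between these libraries. Higher and lower, as counts of genes, mean a difference of 2-fold or more on the scale log2((dek33 + 1)/(wild type + 1)) for genes that reached 5 FPKM in 1 or both libraries. Over the 21688 genes that reached 1 FPKM, log2 ratios had a median of 0.44, a factor of 1.36 in favour of dek33. Centred ratios have that median subtracted, and folds given in the text are plain ratios of FPKM. Markers of the labelled tissue were abundant: zeins and other endosperm genes, 22 in all, summed to 132651 FPKM in dek33 and 215928 in wild type. Of these, 13 were lower in dek33 and 3 higher, the latter zeins listed at 0 in wild type, which can mark a failed estimate. Those 3 zeins brought 24482, 22884 and 11333 FPKM to the dek33 sum and nothing to that of wild type. Embryo markers (oleosins, globulins and late embryogenesis proteins) were present too, at 2241 against 12432 over 17 genes. Of the 16 at 5 FPKM or more, 12 were lower in dek33. Among the 12, 4 reached 5 FPKM in wild type alone and so had to have the lower value in dek33. Basal endosperm transfer layer markers, of the cells that take up sugars from the mother plant, summed to 500.5 against 1056 over 11 genes. Of the 6 at 5 FPKM or more, 2 were lower, or 5 after centring. The 4 genes matched by the words aleurone or viviparous summed to 95.5 against 90.0. Of the 3 at 5 FPKM or more, 0 were higher and 1 was lower under both scalings. That was viviparous-1 (GRMZM2G133398), with 5.86 against 12.7. None of 17 green tissue genes reached 5 FPKM. Beside these counts stand 14.8% higher and 4.02% lower among all genes at 5 FPKM or more, or 4.4% and 6.79% centred. In such tissue samples, fewer cells of a type and less RNA per cell cannot be told apart, and the part of these markers in the differences below was not tested.

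Most hormone genes were expressed at low or moderate levels and did not reach the 2-fold limit. Of the 77 genes, 54 had at least 1 FPKM in 1 or both libraries, 30 had at least 5, and 4 were listed at 0 in 1 library, each of these below 1 FPKM in the other. Among the 30, the dek33 library was higher for 2 and lower for 6, while 22 passed neither limit. For comparison, 14.8% of all 14348 genes of that level passed it as higher and 4.02% as lower. After centring, none of the 30 was higher and 9 were lower, against 4.4% and 6.79% of all genes. Centring lowers every ratio by the same amount, so the 6 lower genes pass it by construction, and the 2 higher genes no longer passed. Of the 30 genes, 4 reached 5 FPKM in dek33 alone and 4 in wild type alone. The latter 4 are all among the 6 lower genes and, having entered through wild type, had to have the lower value in dek33. The median log2 ratio of the 54 expressed genes was 0.13, or -0.31 centred, so its direction turned with the scaling.

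**Figure D1:**
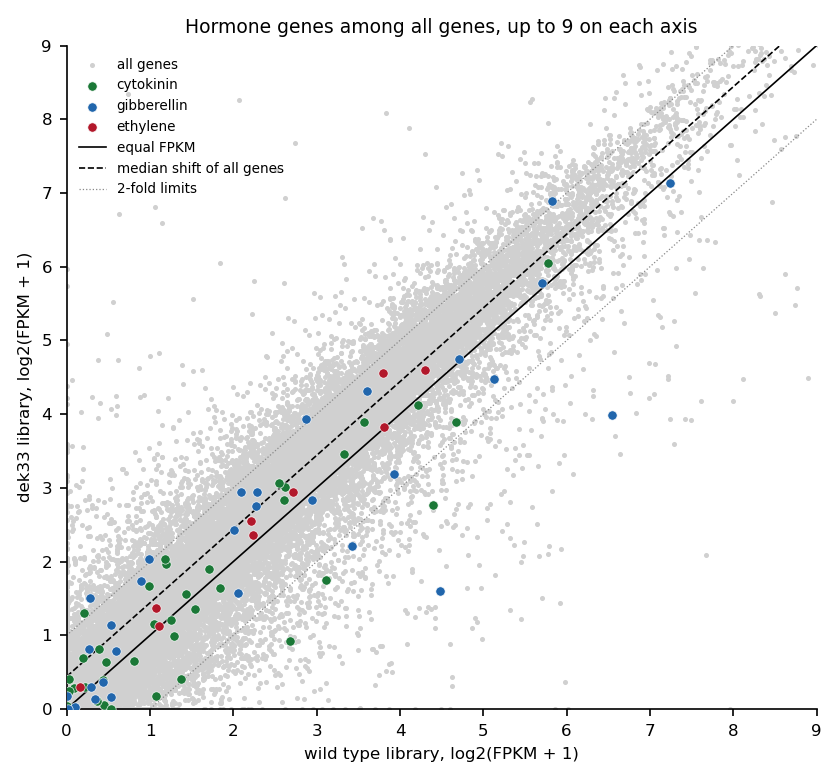
Each point is a gene, with log2(FPKM + 1) in the wild type library on the horizontal axis and in the dek33 library on the vertical axis. All genes are grey and the cytokinin, gibberellin and ethylene genes are coloured. The solid line marks equal FPKM, the dashed line the median shift of 0.44 and the dotted lines the 2-fold limits. Most coloured points lie between the dotted lines, and 6 genes at 5 FPKM or more lie below the lower limit.

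Among cytokinin genes, no gene was higher in the dek33 library and each of the lower ones encodes a different kind of protein. The 11 genes that reached 5 FPKM divided into 0 higher, 3 lower (27.3%) and 8 past neither limit. All genes at that level gave 14.8% higher and 4.02% lower. Centring gave 0 higher and 4 lower, against 4.4% and 6.79% of all genes. The 3 were a glucosyltransferase, a clock protein and a response regulator of transfer cells. The median log2 ratio of the 24 genes at 1 FPKM or more was 0.12, or -0.32 centred.

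Cytokinin oxidases, which degrade the hormone irreversibly, were all low. None of the 5 reached 5 FPKM. Cytokinin dehydrogenase 12 (GRMZM2G008792) had 2.11 FPKM in dek33 and 2.60 in wild type, and cytokinin dehydrogenase 10 (GRMZM2G348452) had 1.55 and 1.92. Both were thus slightly lower in dek33, within 1.24-fold. Of the other 3, cytokinin oxidase 2 (GRMZM2G050997), at 0.331 against 1.59, was below 1 FPKM in dek33. Cytokinin dehydrogenase 6 and cytokinin oxidase 3 stayed below 1 FPKM in both libraries. The printed locus of cytokinin oxidase 3 (GRMZM2G167220) is shared with an uncharacterized gene, GRMZM2G467069, which had 83.0 against 15.4. The 5 oxidases together summed to 5.18 FPKM in dek33 and 6.64 in wild type.

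Glucosyltransferases described as acting on cytokinin, which attach glucose to the hormone and so make storage or inactive forms, were led by 1 gene in each library. The enzymes were named by similarity and their substrates were not measured here. Cytokinin-O-glucosyltransferase 3 (GRMZM5G854655, chromosome 10, 131922231 to 131924319, B73 RefGen_v3, as are all positions given) had 13.8 FPKM in dek33 and 24.6 in wild type. It was 1.78-fold lower and made up 62.7% of the family's summed FPKM in dek33 and 68.1% in wild type. Its log2 ratio was -0.79, short of the limit, and -1.23 centred, past it. Cytokinin-O-glucosyltransferase 1 (GRMZM2G042865, chromosome 8, 120963148 to 120965266) had 0.893 against 5.42, 6.06-fold lower in dek33 and past the limit. It was at 5 FPKM or more only in wild type. The other 10 glucosyltransferases reached at most 2.91 in dek33 and 1.71 in wild type, and 6 were below 1 FPKM in both. Of those 10, 7 had the higher value in dek33 and 3 the lower, beside 23849 higher among all 33283 genes. The 12 together summed to 22.02 against 36.1, a ratio of 0.61.

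The phosphotransfer proteins, which carry phosphate from the receptors to the response regulators, were close to equal in the libraries. Histidine-containing phosphotransfer protein hp2 (GRMZM2G014154) had 16.4 in dek33 and 17.5 in wild type. HP1 (GRMZM2G016439) had 9.995 and 9.06, and HP3 (GRMZM2G451604) had 7.04 and 5.17. The order hp2, HP1, HP3 was the same in both libraries, and none passed 2-fold. The fourth, GRMZM2G039246, had 0.0256 in dek33 and was listed at 0 in wild type. The sum over the family was 33.5 against 31.8.

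Response regulators fall into type B, the DNA-binding factors that switch on cytokinin targets, and type A, which damp the signal. Not every description gives the type. The most abundant was the type B factor RR10 (GRMZM2G126834), with 13.8 FPKM in dek33 and 10.9 in wild type, 1.27-fold higher and 0.12 below the median shift on the centred log2 scale. RR8 (GRMZM2G099797), described as like the type B regulator ARR1 of Arabidopsis, had 6.16 and 5.08. GRMZM2G409974, a response regulator of no given type, had 7.39 and 4.87. These 3 were all within 2-fold.

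Among response regulators that reached 5 FPKM, the largest difference was that of tcrr-1 (GRMZM2G016145, chromosome 4, 70600591 to 70601871), known in maize as a response regulator of the basal transfer cells. It had 2.37 FPKM in dek33 and 7.62 in wild type, 3.21-fold lower, with a log2 ratio of -1.35 and -1.79 centred. It was the only response regulator at 5 FPKM or more to pass the limit under either scaling, and it reached 5 FPKM only in wild type. The transfer layer markers given above had the lower sum in the same library, at 500.5 against 1056, as had the endosperm and embryo markers. The part of these markers in the difference of tcrr-1 was not tested.

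Transcripts of other regulators of type A were low. Response regulator 7 (GRMZM2G096171) had 1.47 against 0.155, response regulator 6 (GRMZM2G129954) had 0.994 against 1.44, and cytokinin response regulator 2 (GRMZM2G392101) had 1.32 against 1.39. GRMZM2G148056, described as like ARR3 of Arabidopsis, had 0.315 against 0.355. Their directions thus differed, and these 4 were all under 5 FPKM. RR3 (GRMZM2G035688), known as abph1 for its mutant with altered leaf arrangement, was listed at 0 in dek33 and had 0.444 in wild type. Many type A genes are known to be switched on by cytokinin. All 13 response regulators, tcrr-1 included, summed to 40.1 in dek33 and 36.5 in wild type.

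The word response regulator also took in PRR proteins, which lack the phosphate-accepting site and belong to the circadian clock rather than to cytokinin signalling. PRR73 (GRMZM2G095727, chromosome 9, 138861929 to 138870925) had 5.84 FPKM in dek33 and 20.01 in wild type, 3.42-fold lower, with a log2 ratio of -1.62 and -2.06 centred. PRR1 (GRMZM2G020081) differed in the other direction, with 3.10 against 1.27, and stayed under 5 FPKM. The hour of sampling was not stated in these sources. Cytokinin inducible protease 1 (GRMZM2G009443), named for its response to the hormone, was the most abundant of the 37 genes, with 65.4 and 53.9. It was 1.21-fold higher in dek33 before centring and 0.17 below the median shift after it. With the glucosyltransferases, the PRR proteins and this protease left out, 22 cytokinin genes remained. Of the 7 of these at 5 FPKM or more, tcrr-1 alone was lower and none was higher. Among all genes at that level, 4.02% were lower and 14.8% higher.

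**Figure D2:**
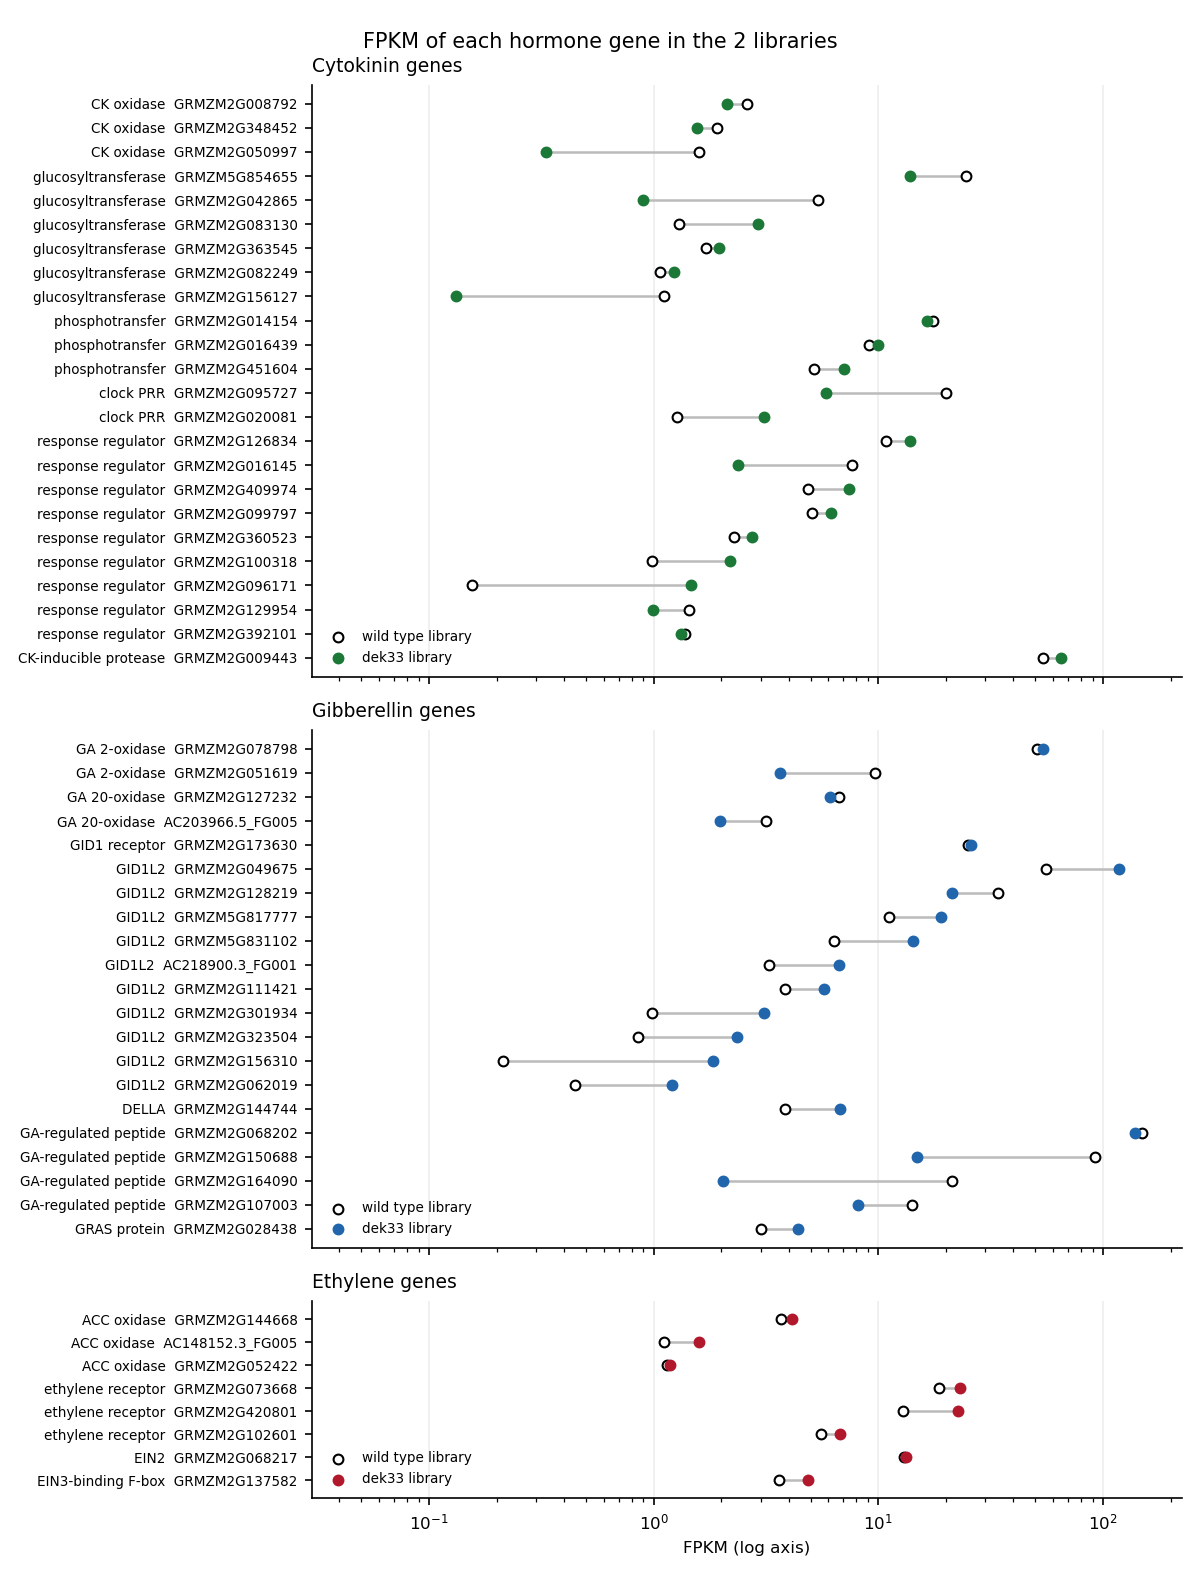
Each line is a gene with at least 1 FPKM in 1 or both libraries, in 3 panels for the 24 cytokinin, 21 gibberellin and 8 ethylene genes, ordered by role. The horizontal axis is FPKM on a log axis, with an open circle for the wild type library, a filled circle for the dek33 library and a bar joining the pair. Circles lie close together for most receptors and phosphotransfer proteins, and farthest apart among abundant genes for the gibberellin-regulated peptides.

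Among gibberellin genes, 2 of the 4 secreted gibberellin-regulated peptides were lower in the dek33 library, while the most abundant peptide, the receptor and the main inactivating enzyme were within 1.07-fold. The 15 genes that reached 5 FPKM divided into 2 higher (13.3%), 3 lower (20%) and 10 past neither limit. Among all genes at that level, 14.8% were higher and 4.02% lower. Centring left 0 higher and 5 lower, against 4.4% and 6.79% of all genes, so the higher calls rest on the scaling. The median log2 ratio of the 21 genes at 1 FPKM or more was 0.42, close to that of all genes, or -0.017 centred.

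Gibberellin 20-oxidases build the precursors of active gibberellins. Gibberellin 20 oxidase 2 (GRMZM2G127232) had 6.13 FPKM in dek33 and 6.68 in wild type, and gibberellin 20 oxidase 1 (AC203966.5_FG005) had 1.97 and 3.16. Both were lower in dek33 and short of 2-fold. The other 2 were at or below 0.262 in each library.

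Gibberellin 2-oxidases, which inactivate the hormone, were dominated by GRMZM2G078798. It had 54.1 FPKM in dek33 and 51.1 in wild type, a difference of 1.06-fold, and held 93.5% of the summed 2-oxidase FPKM in dek33 and 83.9% in wild type. A less abundant enzyme, gibberellin 2-beta-dioxygenase GRMZM2G051619 (chromosome 6, 131338805 to 131342645), had 3.64 against 9.72, 2.67-fold lower in dek33, with a log2 ratio of -1.21 and -1.65 centred. It was at 5 FPKM or more only in wild type. Because the first gene outweighs it, the summed 2-oxidase FPKM was 57.9 against 60.9. The remaining 2 genes were below 1 FPKM in both, and GRMZM2G031432 among them was listed at 0 in wild type.

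The receptor and the repressor differed by less than 2-fold. The GID1-like gibberellin receptor (GRMZM2G173630), which binds the hormone, had 26.0 FPKM in dek33 and 25.1 in wild type. The DELLA protein DWARF8 (GRMZM2G144744), a repressor of gibberellin responses whose dominant mutant plants are short, had 6.73 and 3.86. It was 1.74-fold higher in dek33, with a centred log2 ratio of 0.23. The closely related DWARF9 (GRMZM2G024973), whose description lacks the word DELLA and which is therefore not among the 77, had 6.41 and 7.01. The DELLA pair thus differed in opposite directions before centring, both within 2-fold. The GRAS protein GRMZM2G028438, described as responsive to chitin and gibberellin, had 4.39 and 3.02.

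Gibberellin-regulated peptides are small cysteine-rich secreted proteins, first known from their induction by the hormone, and among the genes that reached 5 FPKM they held the 2 largest differences. All 4 had the lower value in dek33, beside 4654 of the 21688 genes at 1 FPKM or more. The most abundant, gibberellin-regulated protein 2 GRMZM2G068202, had 139.6 FPKM in dek33 and 150.02 in wild type, within 1.07-fold. Another gene described as gibberellin-regulated protein 2, GRMZM2G164090 (chromosome 8, 101018700 to 101019710), had 2.04 against 21.4, 10.48-fold lower, with a log2 ratio of -2.88 and -3.32 centred. It reached 5 FPKM only in wild type. Gibberellin-regulated protein 1 GRMZM2G150688 (chromosome 1, 256145757 to 256146645) had 14.9 against 92.1, 6.17-fold lower, with a log2 ratio of -2.55 and -2.99 centred. The GASA-like peptide GRMZM2G107003 (chromosome 2, 41221411 to 41222584) had 8.14 against 14.2, 1.74-fold lower, and passed the limit only after centring, at -1.17. The 4 together summed to 164.7 against 277.7. Without GRMZM2G068202, the other 3 summed to 25.1 against 127.7, so GRMZM2G068202 carried 84.8% of the family in dek33 and 54.0% in wild type. The endosperm, embryo and transfer layer markers all had the lower sum in the same library, as given above, and their part in these differences was not tested.

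The description gibberellin receptor GID1L2 covers 15 genes, relatives of the receptor in a family that also holds carboxylesterases. The name was given by similarity and does not show that they bind gibberellin. GRMZM2G049675 (chromosome 5, 175629508 to 175630860) was the most abundant, with 117.8 FPKM in dek33 and 55.7 in wild type, 2.11-fold higher, with a log2 ratio of 1.07 and 0.63 centred. GRMZM5G831102 (chromosome 7, 126781732 to 126783494) had 14.2 against 6.34, 2.24-fold higher, at 1.05 and 0.61 centred. These were the 2 higher genes of the whole set, and neither passed the limit after centring. GRMZM2G128219 (chromosome 4, 122702506 to 122703826) differed in the other direction, with 21.3 against 34.1, and its log2 ratio of -0.65 became -1.09 when centred.

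Over the 15 GID1L2 genes, 11 had the higher value in dek33 and 4 the lower. Of all 33283 genes, 23849 had the higher value in dek33. The 10 genes at 1 FPKM or more had a median log2 ratio of 0.85, or 0.41 centred, with 9 above the median shift of all genes. Of these 10, however, 4 reached 1 FPKM in dek33 alone and so had to differ in that direction. The family summed to 195.0 against 118.5, a ratio of 1.65. Without GRMZM2G049675 the ratio was 1.23. The 12 genes other than GRMZM2G049675, GRMZM5G831102 and GRMZM2G128219 summed to 41.7 against 22.3, a ratio of 1.87, beside the factor of 1.36 by which the median of all genes was shifted. The ratio of the family thus depended on single genes.

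Some GID1L2 genes lie beside each other. On chromosome 7, GRMZM5G831102 is followed after 80.9 kb by GRMZM2G140909, listed at 0 in dek33 and at 0.0130 in wild type, and after a further 78.9 kb by GRMZM2G133836, with 0.752 against 0.201. Elsewhere on that chromosome, GRMZM2G301932, with 0.116 against 0.446, lies 10.4 kb from GRMZM2G301934, with 3.09 against 0.983. Neighbouring copies thus differed in level and, in the latter pair, in direction. Copies of similar sequence can exchange reads, so single values of this family are uncertain.

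**Figure D3:**
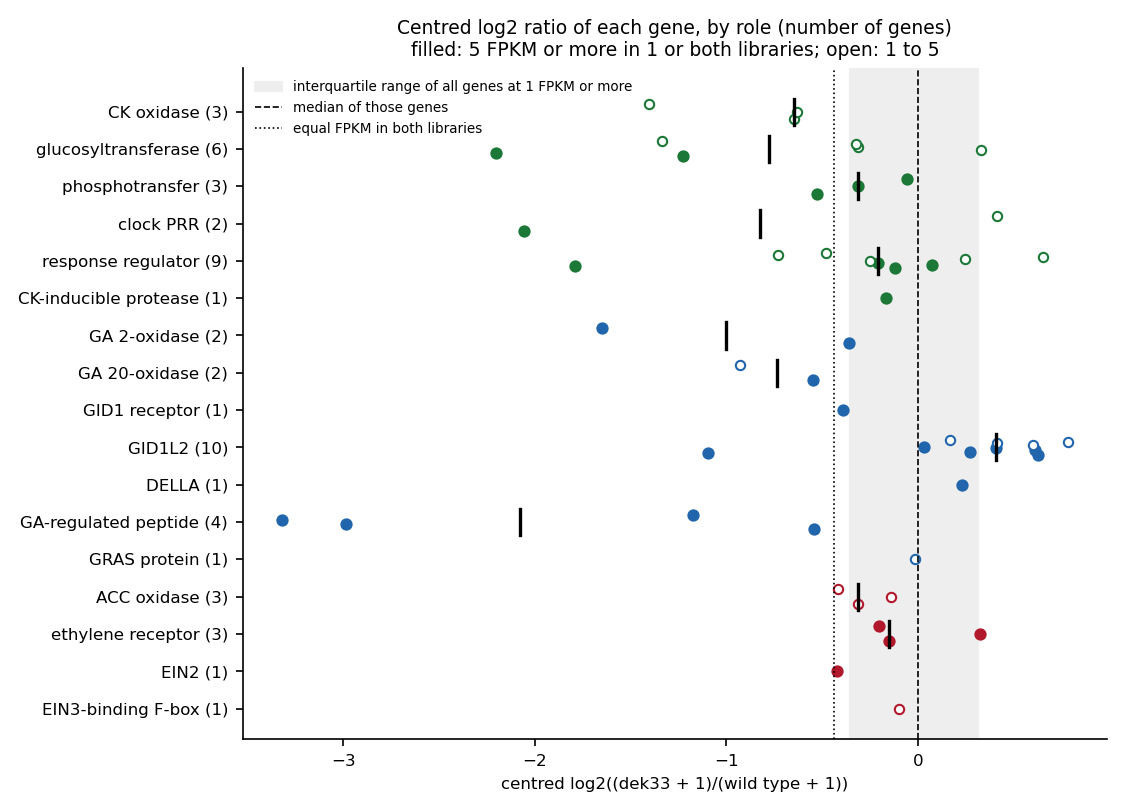
Each point is a gene with at least 1 FPKM in 1 or both libraries, placed by its centred log2 ratio on the horizontal axis and by its role on the vertical axis, with the number of genes in parentheses. Filled points have at least 5 FPKM in 1 or both libraries, short black lines are medians of roles with more than 1 gene, and the grey band is the interquartile range of all genes, from -0.36 to 0.31. The gibberellin-regulated peptides lie left of the band, 9 of the 10 GID1L2 genes lie right of the dashed median of all genes, and the ethylene genes lie in or near the band.

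Ethylene receptors, EIN2 and the EIN3-binding F-box gene all differed by less than 2-fold between the libraries. None of the 4 ethylene genes that reached 5 FPKM passed the limit under either scaling, where 14.8% of all genes were higher and 4.02% lower as deposited. All 9 had the higher FPKM in dek33, as had 78.5% of all genes at 1 FPKM or more. Relative to the median shift, 1 of the 8 at 1 FPKM or more was above and 7 below. Their median log2 ratio was 0.26, or -0.18 centred, so its direction turned with the scaling. No description among the 9 named an ACC synthase or an EIN3-like transcription factor, and these are not analysed here.

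ACC oxidases, which release ethylene in the last step of its synthesis, were low. GRMZM2G144668 had 4.14 FPKM in dek33 and 3.70 in wild type, and AC148152.3_FG005 had 1.59 and 1.11. GRMZM2G052422 had 1.19 and 1.15, while GRMZM2G166616 was below 1 FPKM in both. The 4 summed to 7.15 against 6.07, with GRMZM2G144668 holding 57.9% in dek33 and 60.9% in wild type.

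Ethylene receptors, which sit in the endoplasmic reticulum membrane, differed in level among themselves. The most abundant, GRMZM2G073668, had 23.1 FPKM in dek33 and 18.7 in wild type. The receptor etr2 (GRMZM2G420801) had 22.6 and 12.9, 1.75-fold higher, and was the ethylene gene above the median shift, with a centred log2 ratio of 0.32. GRMZM2G102601, named ERS14, had 6.73 and 5.56, below EIN2 in both libraries. The order of the 3 receptors was the same in both libraries, though GRMZM2G073668 and etr2 lay closer in dek33 than in wild type. With no replicates, whether neighbours in this order differ cannot be told.

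Downstream of the receptors, EIN2 (GRMZM2G068217), the membrane protein that passes the signal toward the nucleus, had 13.2 FPKM in dek33 and 13.04 in wild type. EIN3-binding F-box protein 1 (GRMZM2G137582), which marks the EIN3 transcription factor for degradation, had 4.88 and 3.64. Both were within 1.34-fold.

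The other genes of each pathway were taken from word lists that leave out the 77. Their counts stand beside 14.8% higher and 4.02% lower among all genes at 5 FPKM or more, or 4.4% and 6.79% centred. For cytokinin there were 14, of which 3 had at least 5 FPKM, with 1 higher and 0 lower under either scaling. All 3 reached 5 FPKM in dek33 alone, so none of them could be lower. The higher one was a cis-zeatin O-glucosyltransferase (GRMZM2G120016), which had 11.04 FPKM in dek33 and was listed at 0 in wild type, so that no fold is given. The 2 further genes described as cis-zeatin O-glucosyltransferases had 2.06 against 0.708 and 0.345 against 0.114. The histidine kinases, a family that holds the cytokinin receptors, were within 2-fold where expressed. Histidine kinase 2 (GRMZM2G471529) had 7.65 and 4.86, histidine kinase HK1b1 (GRMZM2G155767) had 5.75 and 3.46, and histidine kinase 3 (GRMZM2G158252) had 2.78 and 1.85. Isopentenyl transferases, which make the hormone, stayed under 5 FPKM. IPT8 (GRMZM2G025429) had 4.14 against 1.87 and IPT2 (GRMZM2G084462) had 0.761 against 3.23, opposite directions among low values.

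For gibberellin there were 12 other genes, of which 6 had at least 5 FPKM and 0 were higher or lower under either scaling. Ent-kaurene oxidase (GRMZM2G059308), of the early synthesis steps, had 7.48 FPKM in dek33 and 4.54 in wild type. The copalyl diphosphate synthase an1 (GRMZM2G081554), listed as kaurene synthase A, had 8.50 and 8.12. Dwarf1, the gibberellin 3-oxidase that makes the active hormone (GRMZM2G036340), had 0.0430 in dek33 and was listed at 0 in wild type. The F-box protein GID2 (GRMZM2G440543), which helps to degrade DELLA proteins, had 9.05 and 5.05. The transcription factor GAMYB (GRMZM2G139688), an activator of hydrolase genes in cereal aleurone, had 54.4 and 37.7 and lay 0.077 from the median shift.

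For ethylene there were 14 other genes, of which 10 had at least 5 FPKM. As deposited 2 were higher and 0 lower, beside 14.8% and 4.02% of all genes. After centring 2 were higher and 2 lower, beside 4.4% and 6.79%. S-adenosylmethionine synthases, whose product feeds ethylene synthesis among many other reactions, did not share a direction. GRMZM2G117198 had 35.2 FPKM in dek33 and 62.8 in wild type, GRMZM2G061135 had 43.0 and 29.2, and GRMZM2G054123 had 23.9 and 23.8. The first was the most abundant of the 3 in wild type and the second in dek33. Ethylene response factors, a family of DNA-binding proteins of which not all respond to ethylene, also divided. GRMZM2G148333 had 15.4 against 4.97, 3.10-fold higher, and GRMZM2G055180 had 13.7 against 4.25, 3.24-fold higher. These 2 reached 5 FPKM in dek33 alone and so had to have the higher value there. GRMZM2G174347 had 42.6 against 74.2 and was lower only after centring, at -1.23. Ethylene-overproduction protein 1 (GRMZM2G039280), which restrains ACC synthase, had 6.303 and 4.62.

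**Figure D4:**
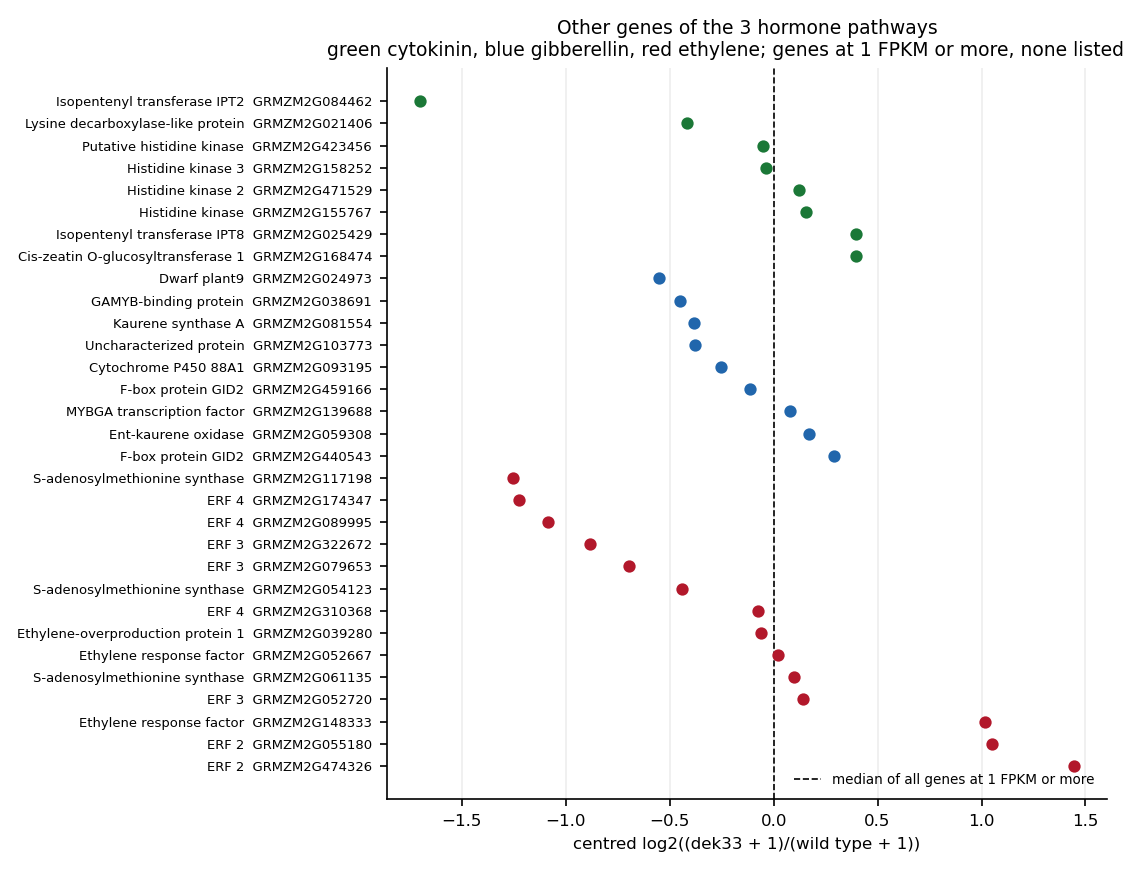
Each point is a further gene of the cytokinin, gibberellin or ethylene pathway with at least 1 FPKM in 1 or both libraries and not listed at 0, with its centred log2 ratio on the horizontal axis. ERF stands for ethylene-responsive transcription factor, and the dashed line is the median of all genes. The gibberellin genes span the narrowest range, from -0.55 to 0.29, while S-adenosylmethionine synthases and ethylene response factors lie on both sides of the line.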

How the data were processed

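RNA of endosperm at 15 days after pollination was measured in 1 dek33 and 1 wild type sample, grouped by genotype label. The authors deposited 1 FPKM value per gene and sample. Bowtie 0.12.2 and the assembly B73 RefGen_v3 are named, per the submitters' processing notes. The design text speaks of triplicates. The sources used here do not give the program for FPKM, the annotation or any pooling. FPKM carries no counts, so depth is unknown. FPKM summed to 761571 in dek33 and 672660 in wild type. A value of 1e-05 stands in place of 0 and can mark a failed estimate.

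Log2 ratios used a pseudocount of 1, and centred ratios have the median of all genes at 1 FPKM or more subtracted. Starts were raised by 1, which makes the span of 69.8% of 843 short predicted genes divisible by 3, against 14.4% without it. Names come from the descriptions and from RefSeq names of the NAM-5.0 assembly, matched for 66 of the 77 genes. The gene set, lists, alternatives and rule for named genes were chosen with earlier results of these data known. Named by rule were genes past the limit under either scaling and the 2 most abundant of each role, 32 in all. Others, named after their values were seen, complete a family. Promoter motifs were planned and not run, since no sequences were used here. The procedure was tested on simulated data. Scripts ran in Python 3.11.15 with pandas 2.3.3, numpy 2.4.6, scipy 1.17.1 and matplotlib 3.10.9.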

Additional observations from a re-analysis of the deposited data

How the results depend on the processing

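Alternatives changed 1 setting at a time. Named genes were recomputed with other pseudocounts and with either rescaling, and none past the limit turned direction. That was fixed in advance, since a pseudocount keeps the sign and both rescaling factors are smaller than the 2-fold limit. Among the 32 named genes, a pseudocount of 5 took 4 below the limit. Either rescaling took 2 below it and 3 past it. For cytokinin, the 3 lower genes became 1 with a pseudocount of 5, with a minimum of 20 FPKM or with narrow membership, and without a minimum 1 gene was higher. The cytokinin median of 0.12 was -0.79 at a minimum of 20 FPKM (3 genes), -0.32 when centred and -0.24 by trimmed mean. For gibberellin, the 2 higher genes became 1 with a pseudocount of 5 or a minimum of 20 FPKM, 4 without a minimum, and 0 when centred, by trimmed mean of M values or with narrow membership. The 3 lower genes became 5 with either rescaling, 2 with a pseudocount of 5 or a minimum of 20 FPKM, and 1 with narrow membership. The gibberellin median of 0.42 was 0.065 without a minimum, -0.10 at a minimum of 20 FPKM, -0.030 with narrow membership, -0.017 centred and 0.050 by trimmed mean, so it shows no direction. The ethylene median of 0.26 was -0.18 centred and -0.16 by trimmed mean. Narrow membership, higher minimums and larger pseudocounts lose calls by construction, and the rescaling factors of 1.36 and 1.39 set the shifts of medians. Leaving out the 4 genes listed at 0 could change no count or median, as all were below 1 FPKM in the other library and already filtered out. No paired analysis was possible because there was 1 sample per genotype, and leaving out replicates could not be run. How precise low values are is unknown, as depth is.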
